A study of Rattus norvegicus with 6 samples.

Results

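The cytosolic ribosomal protein genes were taken as all gene rows whose symbol has the form of a small subunit (Rps, with Rpsa) or large subunit (Rpl, with Rplp) ribosomal protein. Of 17055 gene rows 81 met this rule, 32 of the small subunit and 49 of the large. The mRNA of whole pancreatic islets, the hormone-secreting cell clusters of the pancreas, was sequenced in Sprague-Dawley rats. The adult group held islets of 3-month-old males (12 weeks by the age label), and the P10 group came from 10-day-old rats (1.5 weeks by the age label) whose sex the labels do not give. Each group had 3 libraries labelled as biological replicates, and the labels leave unsaid whether pups were pooled for a P10 library. Reads assigned to genes numbered between 3307415 and 6477825 per library, and 72 members (29 small, 43 large) had enough counts for a test.

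Cytosolic ribosomes translate the mRNAs of the cell nucleus, including the insulin mRNA that islet beta cells translate in bulk. The small subunit binds the mRNA and reads its codons, and the large subunit joins the amino acids and releases the chain through an exit tunnel. The mRNAs of ribosomal proteins in mammals typically begin at a C followed by an unbroken stretch of C and T bases (a terminal oligopyrimidine or TOP tract), through which mTORC1 signalling sets how much of each mRNA is translated. Translation itself was not measured here, since the values are mRNA levels.

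The annotated starts of several members are shown because long runs of C and T are more frequent there than at annotated starts in general. Members that fell most and members that did not pass the test can also be read side by side. The windows below run from 15 bases before to 15 bases from the annotated start, on the gene's own strand, from RefSeq on the GRCr8 build, and capitals mark the longest unbroken run of C and T. The first 6 are the 3 largest falls of each subunit with an entry in that table, and the last 4 are the members whose values differed least between the ages.
Rps7 (chr6:50999431-50999460, minus strand): tcgcgagagctgtgTCTCTTTCTaagccgg
Rps12 (chr1:23500060-23500089, plus strand): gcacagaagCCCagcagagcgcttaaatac
Rps14 (chr18:56498245-56498274, plus strand): cccttccgTCTCTCTCTTTCCggtggagga
Rpl22 (chr5:168117946-168117975, plus strand): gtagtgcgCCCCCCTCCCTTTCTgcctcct
Rpl10a (chr20:6390518-6390547, plus strand): gaaaccttctgCCTTCTTTTCCggttcccg
Rpl24 (chr11:58128391-58128420, minus strand): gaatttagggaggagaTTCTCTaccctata
Rps23 (chr2:23814502-23814531, plus strand): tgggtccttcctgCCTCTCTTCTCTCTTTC
Rplp0 (chr12:46718376-46718405, minus strand): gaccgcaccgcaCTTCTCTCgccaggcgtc
Rpl17 (chr18:70856261-70856290, plus strand): tagccttcgcgCTTCCTCTTCCTgttagcg
Rpl4 (chr8:73566462-73566491, plus strand): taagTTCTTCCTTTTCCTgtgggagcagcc

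Most of the family was lower in adult islets. Of the 72 members tested 63 were lower in adults and 0 were higher (edgeR quasi-likelihood test, false discovery rate (FDR) under 0.05), which is 87.5% of them. Among all 10124 genes tested 13.8% were called lower and 12.5% higher. In the small subunit 26 of 29 were lower, and in the large subunit 37 of 43. For 65 of the 72 members tested every adult library lay below every P10 library, against 22.3% of all genes tested. For 0 of the 72 every adult library lay above, against 20.0%. The median log2 fold change, adult over P10, was -0.58 in each subunit, which corresponds to a level 1.50-fold lower in adults, while the median over all genes tested was -0.03. In bulk tissue, fewer cells of a type and less RNA per cell cannot be told apart.

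**Figure D1:**
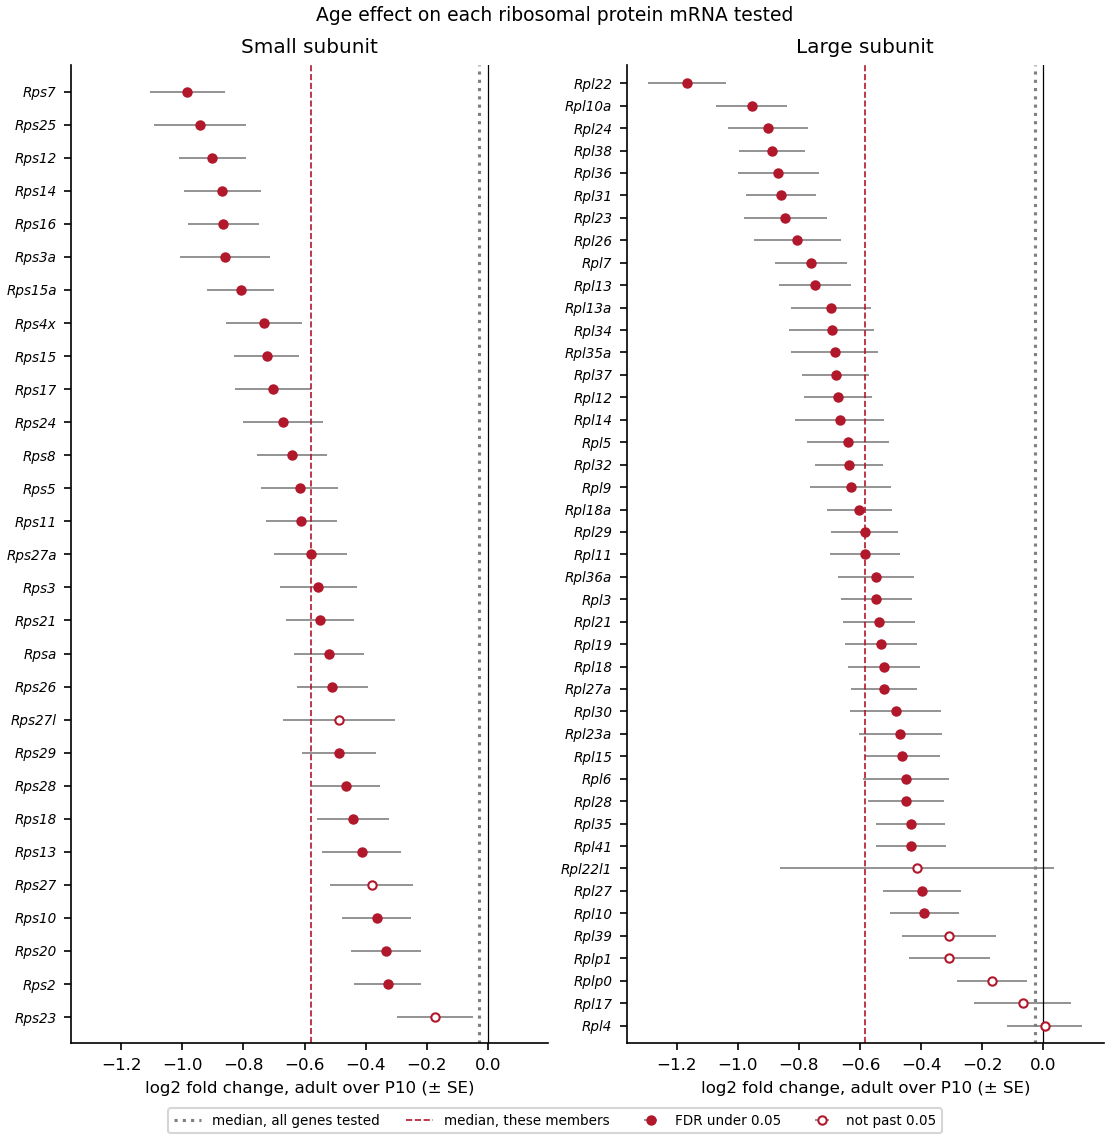
Log2 fold change (adult over P10, on the x axis) of each tested small subunit (left) and large subunit (right) member, with bars of 1 standard error. Filled points passed an FDR of 0.05 and open points did not, and both dashed medians lie at -0.58 while the dotted median of all genes lies at -0.03.

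As a share of gene counts the family was smaller in every adult library than in every P10 library. Both subunits together held 3.19%, 2.92% and 3.37% of gene counts in adult replicates 1, 2 and 3, against 6.63%, 7.15% and 6.16% in P10 replicates 1, 3 and 4. The small subunit members averaged 1.24% ± 0.0734 in adults and 2.65% ± 0.196 at P10 (SD, n = 3 each), and the large subunit members 1.92% ± 0.155 in adults and 3.99% ± 0.298 at P10. Exact 95% binomial intervals reached at most 0.0250 percentage points to either side of a share, for counting error only. The subunits kept nearly the same proportion to each other, with 1.58, 1.51 and 1.57 large subunit counts for each small subunit count in the adults and 1.52, 1.50 and 1.50 at P10.

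**Figure D2:**
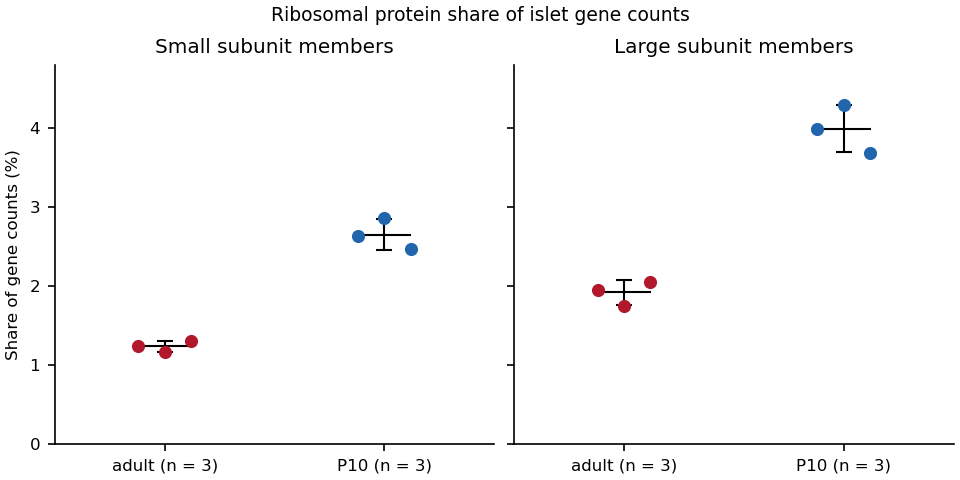
Share of all gene counts (%) held by small subunit (left) and large subunit (right) members in each library, with the group mean as a horizontal line and bars of 1 SD (n = 3 per group). All adult points lie below all P10 points in both panels, at 1.24% against 2.65% on average for the small subunit and 1.92% against 3.99% for the large.

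Part of the difference in these shares moved with other large parts of the libraries. The insulin genes took 46.6%, 52.3% and 47.1% of gene counts in the adults and 33.6%, 28.3% and 32.2% at P10. Without hormone and acinar genes in the denominator, the adult share divided by the P10 share was 0.614 for the small and 0.633 for the large subunit, and with all gene counts it was 0.466 and 0.481. Alignments that were not unique, which enter no gene's count, made up 17.8%, 15.1% and 16.2% of gene and counter rows together in the adults and 27.7%, 23.4% and 23.4% at P10. With these alignments added to the denominator the ratios were 0.519 and 0.536. The per-gene tests scale libraries with edgeR's TMM factors (a trimmed mean of gene-wise log ratios) instead, and levels are given in CPM, read counts adjusted for library size. On this scale the summed level of the members ran from 36536 to 38837 CPM in adults and from 53182 to 58239 CPM at P10.

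The members moved as a narrow band. Among genes averaging at least 50 CPM the log2 fold changes of 71 members had an SD of 0.221, against 0.771 for the 2310 other genes. Within a group the members were also steady, with a median coefficient of variation of 9.46% in adults and 7.02% at P10, against 10.2% and 11.1% for those other genes. The sets shared only the floor of 50 CPM and were not otherwise matched on level. The part of level in these spreads was not tested. The order of member levels was much the same at both ages, with a Spearman correlation of 0.947 across the 72 members. That correlation describes genes measured in the same libraries, which are not independent replicates and whose counts are not corrected for transcript length.

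In the small subunit the largest fall was that of Rps7, a protein needed for processing of the small subunit's ribosomal RNA. Its level was 261, 239 and 255 CPM in adult replicates 1, 2 and 3, against 439, 556 and 496 CPM in P10 replicates 1, 3 and 4. The groups were far apart, and the level was 1.98-fold lower in adults (log2 fold change -0.98 ± 0.12 SE, FDR 2.85e-05). Rps25, which some viral mRNAs need for internal initiation, had 373, 374 and 526 CPM in adults, against 933, 827 and 692 CPM at P10. Adult replicate 3 was the highest of its group and still below every P10 library, and the level was 1.92-fold lower (log2 fold change -0.94 ± 0.15 SE, FDR 0.000259). Rps12, a protein of the small subunit's head, had 700, 634 and 701 CPM in adults, against 1345, 1252 and 1206 CPM at P10 (log2 fold change -0.90 ± 0.11 SE, FDR 2.08e-05). Its start window above holds no pyrimidine run longer than 3 bases.

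Rps14, whose loss of 1 copy causes the anaemia of a human myelodysplastic syndrome, had 637, 809 and 587 CPM in adults, against 1250, 1240 and 1221 CPM at P10. The P10 libraries were close together and the adults more spread, with a level 1.83-fold lower in adults (FDR 0.000113). Rps16, whose tail reaches the tRNA in the decoding centre, was 1.82-fold lower (FDR 5.25e-05), with a mean of 584 ± 58.0 CPM in adults and 1065 ± 64.1 CPM at P10 (SD, n = 3 each). Rps3a, which lies near the place where initiation factor eIF3 binds, was also 1.82-fold lower (FDR 0.000513), at 310, 366 and 448 CPM in adults and 795, 659 and 587 CPM at P10. These 6 falls passed the threshold whichever library was left out.

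The other small subunit members that fell did so by 1.26-fold to 1.75-fold. They include Rps2 and Rps3, which line the channel where mRNA enters. Rps3 averaged 378 ± 53.0 CPM in adults and 556 ± 37.6 CPM at P10. Rps2 averaged 945 ± 78.2 CPM in adults and 1187 ± 20.2 CPM at P10, and its smaller fall (1.26-fold, FDR 0.0350) was lost when any library other than adult replicate 2 was left out. Rpsa, also known as the laminin receptor, had 551, 549 and 554 CPM in adults, against 882, 780 and 711 CPM at P10 (1.44-fold lower, FDR 0.00337). Rps27a, made as a fusion with ubiquitin, had 495, 396 and 472 CPM in adults, against 712, 694 and 633 CPM at P10 (1.50-fold lower, FDR 0.00211). Rps26, the highest tested small subunit member by mean CPM, averaged 923 ± 63.7 CPM in adults and 1313 ± 140 CPM at P10 (1.42-fold lower, FDR 0.00422). Rps15a, which sits in the body of the subunit, had little spread, at 329 ± 11.8 CPM in adults and 576 ± 7.99 CPM at P10 (1.75-fold lower, FDR 6.18e-05).

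In the large subunit the largest fall was that of Rpl22, an RNA-binding protein of the subunit's outer face that mice need to form most of their T cells. Its level was 184, 187 and 174 CPM in adult replicates 1, 2 and 3, against 443, 431 and 349 CPM in P10 replicates 1, 3 and 4. No adult library came near the lowest P10 library, and the level was 2.24-fold lower in adults (log2 fold change -1.17 ± 0.13 SE, FDR 7.16e-06). This was the largest fold of the 72 members tested. Rpl10a, the protein of the mobile stalk beside which spent tRNA leaves, had 375, 351 and 348 CPM in adults, against 703, 750 and 628 CPM at P10. Its level was 1.94-fold lower (log2 fold change -0.95 ± 0.12 SE, FDR 2.08e-05), and the groups were again far apart. Rpl24, which forms a bridge to the small subunit, had 283, 308 and 342 CPM in adults, against 678, 545 and 520 CPM at P10 (log2 fold change -0.90 ± 0.13 SE, FDR 0.000115).

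Rpl38, which mouse embryos need to translate certain Hox mRNAs, had 762, 697 and 769 CPM in adults, against 1348, 1417 and 1360 CPM at P10. Both groups were tight, and the level was 1.85-fold lower (FDR 1.90e-05). Rpl36 was 1.82-fold lower (FDR 0.000183), at 598, 411 and 495 CPM in adults and 919, 948 and 877 CPM at P10. Rpl31, a protein at the mouth of the exit tunnel, was 1.81-fold lower (FDR 4.81e-05), at 502, 501 and 562 CPM in adults and 1007, 963 and 869 CPM at P10. These 6 falls too passed the threshold whichever library was left out.

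The other large subunit members that fell did so by 1.31-fold to 1.80-fold. Rpl5 and Rpl11, which travel together with the subunit's small ribosomal RNA and bind the p53 regulator Mdm2 when free of ribosomes, both fell. Rpl5 had 567, 626 and 785 CPM in adults, against 1161, 974 and 945 CPM at P10 (1.56-fold lower, FDR 0.00248). Rpl11 had 610, 562 and 635 CPM in adults, against 958, 944 and 807 CPM at P10 (1.50-fold lower, FDR 0.00151). The catalytic-centre protein Rpl3 averaged 473 ± 32.0 CPM in adults and 691 ± 54.0 CPM at P10 (1.46-fold lower, FDR 0.00238). Rpl23a, a docking site of the signal recognition particle, averaged 524 ± 91.5 CPM in adults and 726 ± 74.0 CPM at P10 (1.38-fold lower, FDR 0.0180), and this call was lost on leaving out any of adult replicates 1 and 2 and P10 replicates 1 and 3.

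The 9 tested members that did not pass the threshold were Rps27, Rps27l, Rps23, Rpl39, Rpl22l1, Rplp1, Rplp0, Rpl17 and Rpl4. Rpl4, which has a long loop that reaches into the exit tunnel, had 480, 472 and 562 CPM in adults, against 553, 505 and 453 CPM at P10. The groups overlapped, with a log2 fold change of 0.00 ± 0.12 SE (FDR 0.984). Under scaling by library totals alone the value for Rpl4 was -0.49 (FDR 0.0131), where all genes had a median of -0.52. Under that scaling 71 of the 72 members were called lower, and so were 35.7% of all genes tested. Rpl17, which also lines the tunnel, had 273, 245 and 361 CPM in adults, against 367, 297 and 258 CPM at P10 (log2 fold change -0.07 ± 0.16 SE, FDR 0.798). Rps23, a protein of the decoding centre, had 480, 619 and 499 CPM in adults, against 589, 645 and 569 CPM at P10 (log2 fold change -0.17 ± 0.12 SE, FDR 0.331). Neither Rpl17 nor Rps23 separated the ages in these libraries.

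The stalk proteins, which recruit and activate the translation factors that use GTP, stood among these 9. Rplp0, the base of the stalk, had 942, 851 and 777 CPM in adults, against 992, 991 and 905 CPM at P10 (log2 fold change -0.17 ± 0.11 SE, FDR 0.301). Rplp1, the highest large subunit member by mean CPM, had 1931, 2667 and 1936 CPM in adults, against 2624, 2494 and 2970 CPM at P10 (log2 fold change -0.31 ± 0.13 SE, FDR 0.0992). Adult replicate 2 set the overlap, and without it the value was -0.47 (FDR 0.0102). Rplp2 is listed at 0 in all 6 libraries. Rpl12, which binds at the stalk's base, was by contrast 1.59-fold lower in adults (FDR 0.000363), at 407, 411 and 459 CPM in adults and 706, 663 and 669 CPM at P10.

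Rps27 lay at the edge of the threshold, with 443, 429 and 576 CPM in adults, against 713, 579 and 594 CPM at P10 (log2 fold change -0.38 ± 0.14 SE, FDR 0.0502). Its adult libraries were all below its P10 libraries, by only a few CPM at the nearest pair. Its paralog Rps27l, a target of p53, had 48.1, 61.9 and 62.2 CPM in adults, against 67.4, 101 and 73.6 CPM at P10 (log2 fold change -0.49 ± 0.18 SE, FDR 0.0607). With all libraries both passed with no filter (FDR 0.0284 for Rps27 and 0.0426 for Rps27l) and with at least 5 CPM in 3 libraries (0.0368 and 0.0460), and Rps27 passed with DESeq2 (0.0246). Rps27 also passed without adult replicate 3 (FDR 0.0119) and Rps27l without P10 replicate 1 (FDR 0.0246). Rpl39, a small protein of the exit tunnel, had 81.6, 65.6 and 69.2 CPM in adults, against 78.9, 99.1 and 90.1 CPM at P10 (log2 fold change -0.31 ± 0.15 SE, FDR 0.154).

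A further fit, chosen after the data were seen, scaled the libraries by the members alone and so gave each member's change against the rest of its family. On this scale the members centre on 0 by construction, and the median of all genes tested was 0.58. It called 5 of 72 members lower in adults and 5 higher, where 5.74% of all genes tested were called lower and 41.7% higher. Rpl22 lay 0.55 below the family (log2 value -0.55 ± 0.12 SE, FDR 0.00215). Above it lay Rpl4 (0.61 ± 0.11 SE, FDR 0.000535), Rpl17 (0.54 ± 0.15 SE, FDR 0.00743) and Rplp0 (0.44 ± 0.12 SE, FDR 0.00592). These 4 kept their calls whichever library was left out. Rps7, Rpl10a, Rps12 and Rpl38 (lower) and Rps23 and Rps20 (higher) were also called. Rps12 and Rps20 lost the call in all 6 fits that left out a library. Rpl38 lost it in 5 of these fits, Rps7 in 4, Rpl10a in 3 and Rps23 in 1.

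**Figure D3:**
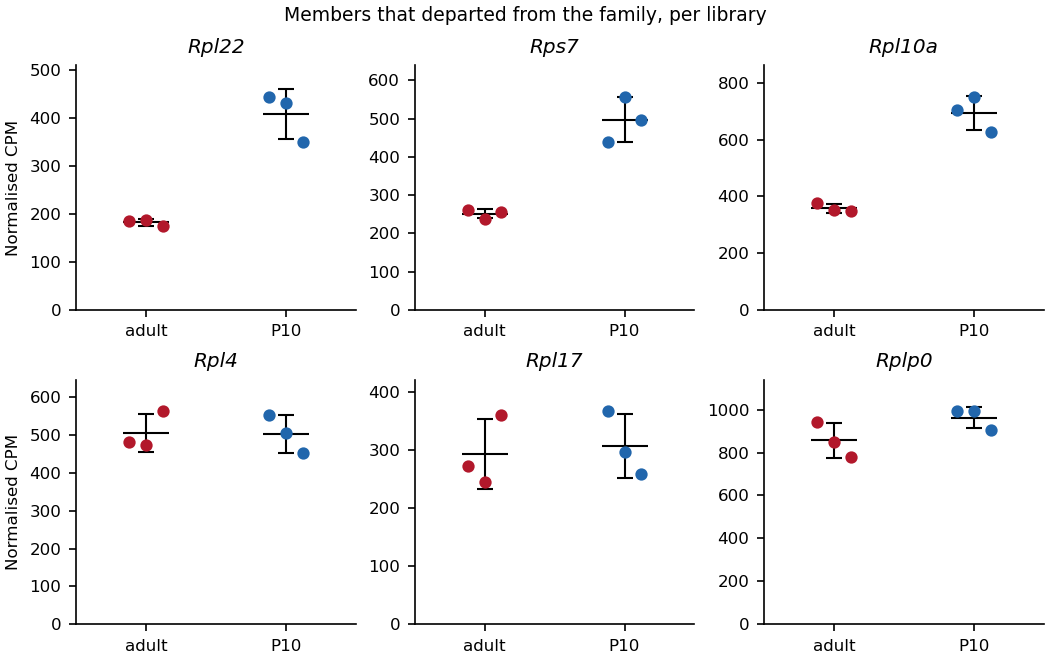
Normalised level (TMM-scaled CPM, axes from 0) of 6 members in each adult and P10 library, with the group mean as a horizontal line and bars of 1 SD (n = 3 per group). In the upper row (Rpl22, Rps7 and Rpl10a) every adult library lies below every P10 library, and in the lower row (Rpl4, Rpl17 and Rplp0) the groups overlap.

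Some members are paralogs that can take the place of a standard protein in the ribosome. Their ratio within a library does not depend on scaling. Rpl22l1, the paralog of Rpl22, was the lowest tested large subunit member, with 4.84, 8.80 and 5.14 CPM in adults, against 10.7, 7.13 and 6.80 CPM at P10 (log2 fold change -0.41 ± 0.45 SE, FDR 0.544). It made up 2.56%, 4.49% and 2.86% of the counts of the pair in adults and 2.36%, 1.63% and 1.91% at P10. Its log2 ratio to Rpl22 was -4.92 ± 0.444 in adults and -5.66 ± 0.275 at P10 (SD, n = 3 each), a difference of 0.74 with an exact two-sided permutation p of 0.1 (0.3 adjusted over 3 pairs). Without adult replicate 2 the difference was 0.49. A p of 0.1 is the smallest that 3 against 3 libraries can give. The adult counts of Rpl22l1 were only 14, 24 and 28.

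The other pairs with counts of both genes in every library differed less between the ages. The log2 ratio of Rps27l to Rps27 was -3.07 ± 0.240 in adults and -2.98 ± 0.442 at P10 (SD, n = 3 each), a difference of -0.09 (exact permutation p 0.8, adjusted 0.8). Its sign turned to 0.14 without P10 replicate 3. Rpl36al, whose symbol the rule does not take, stood about level with Rpl36a. The log2 ratio of Rpl36al to Rpl36a was 0.03 ± 0.166 in adults and -0.26 ± 0.126 at P10 (SD, n = 3 each), a difference of 0.28 (exact permutation p 0.2, adjusted 0.3). Rpl39l and Rpl3l had libraries with 0 counts, so their pairs have no log2 ratio and were not tested. Rpl39l made up 1.67%, 0.556% and 3.58% of the counts of its pair with Rpl39 in adults. At P10 it made up 0%, 0% and 0.269%, from very few counts.

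The 9 members that were not tested had few or no counts. Rps6, the substrate of the S6 kinases, and Rps9, Rpl7a, Rpl8 and Rplp2 are listed at 0 in all 6 libraries, although every cell uses these genes. Rps19, the gene most often mutated in Diamond-Blackfan anaemia, had 0 counts in adults and 4 at P10, all in replicate 4. Rpl37a had 2 counts in adults and 3 at P10. Rpl3l, a paralog of Rpl3 known from muscle, had 0 counts in adults and 8 at P10, all in replicate 3. Rpl39l, a paralog of Rpl39 known from testis, had 4, 1 and 14 counts in adults and 0, 0 and 1 at P10. With each group's counts pooled and scaled to library size, the ratio of adult to P10 was 31.3. Its exact 95% counting interval ran from 4.97 to 1300. That interval holds counting error only and leaves out the spread between libraries. The Rps19 and Rpl3l counts each came from a single library.

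Ribosomal protein genes have many processed pseudogenes, and reads shared with a copy drop out when only unique alignments are counted. By RefSeq names, 78 members had 861 named pseudogenes in the GRCr8 annotation, at most 34 for 1 member. Tested members with 10 or fewer had a median log2 fold change of -0.60 (37 members), and those with more had -0.55 (35 members). The levels of members whose reads are split with such copies are uncertain, and the part that not-unique alignments played in the age difference was not tested. Of the members on the X chromosome in that annotation, Rps4x (1.66-fold lower, FDR 0.000414), Rpl36a (1.46-fold, FDR 0.00402) and Rpl10 (1.31-fold, FDR 0.0170) fell in adults and Rpl39 did not pass. The call of Rpl10 was lost without adult replicate 2 or P10 replicate 3. Age and sex cannot be told apart for these or any other genes, as the adults were male and the P10 sex is unlabelled.

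The start windows shown above come from a table that had an entry for 65 of the 81 members, with 66 windows. A pyrimidine run of 8 or more bases stood within 15 bases of the start in 42 of 66 member windows (63.64%), against 3831 of 33469 windows of all promoters (11.45%) and 865 of 7962 windows of genes tested (10.86%). The median longest run was 9 bases for members and 4 for all promoters. The folds of members with and without such a run were close. Tested members with a run of 8 or more had a median log2 fold change of -0.56, with 33 of 39 called lower, and those with a shorter run had -0.58, with 16 of 19 called lower. Rpl22, with the largest fall, has a run of 15 bases, and Rpl4 and Rpl17, which did not pass the test, have runs of 14 and 12.

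**Figure D4:**
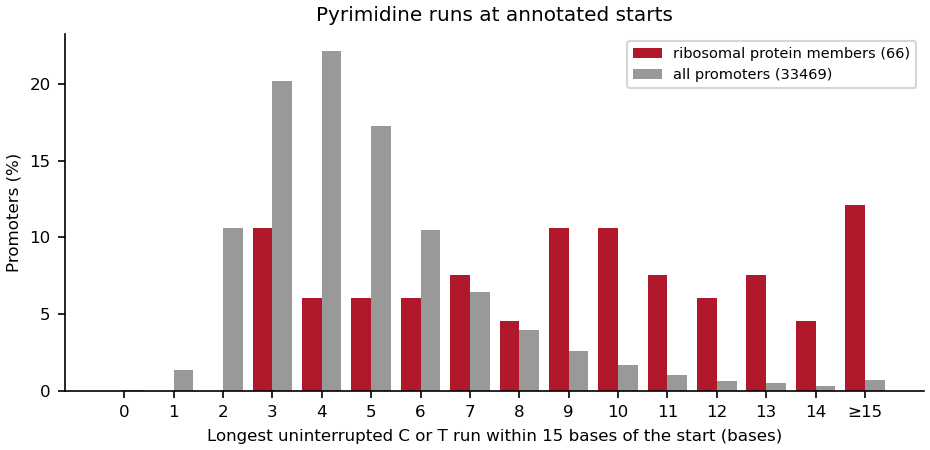
Percentage of promoter windows (y axis) by the length in bases of the longest unbroken C or T run within 15 bases of the annotated start (x axis), for ribosomal protein members (red, 66 windows) and all promoters (grey, 33469 windows). The members' bars lie to the right, with a median of 9 bases against 4.

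Short motifs were searched on both strands of the 300-base windows (250 before and 50 after the start). CTTTCC, which overlaps pyrimidine runs, occurred in 48.48% of member windows and 26.40% of all promoters, and in 26.01% of genes tested. CCGGAAG, the core bound by ETS factors such as GABP, occurred in 30.30% of member windows, 8.745% of all promoters and 17.85% of genes tested. AAGATGGCG, the core bound by YY1, occurred in 4.545% of member windows, 1.733% of all promoters and 3.893% of genes tested. The TATA box letters TATAAA occurred in 10.61% of member windows, 14.22% of all promoters and 6.506% of genes tested. Members with CCGGAAG had a median log2 fold change of -0.58 (18 tested) and those without -0.55 (40 tested). Members with TATAAA had a median of -0.46, with 4 of 7 called lower, and those without -0.63, with 45 of 51 called lower. A match describes the letters in the window and is not a measured site.

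Ribosomal proteins whose symbols the rule does not take all had negative values. Of 5 tested, 3 were lower in adults (60%, against 13.8% of all genes tested) and 0 were higher, with a median log2 fold change of -0.41. Fau, a ubiquitin-like protein fused to a small subunit protein, had 518, 503 and 488 CPM in adults, against 662, 710 and 693 CPM at P10 (1.37-fold lower, FDR 0.00566). Gnb2l1, the scaffold protein RACK1, was 1.33-fold lower (FDR 0.0121), a call lost without adult replicate 1 (FDR 0.0515) or P10 replicate 3 (FDR 0.0633). Rpl36al (FDR 0.107) and Rps4y2 (FDR 0.332) did not pass.

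Other genes whose mRNAs carry a TOP tract behaved less evenly. Of 17 tested, 6 were lower in adults (35.3%, against 13.8% of all genes tested) and 1 was higher, with a median log2 fold change of -0.29. Vim, the intermediate filament protein vimentin, had 63.6, 61.9 and 61.9 CPM in adults, against 282, 387 and 299 CPM at P10 (5.16-fold lower, FDR 1.44e-08), and it is also a product of fibroblasts. Npm1, a nucleolar chaperone of ribosome assembly, was 2.04-fold lower (FDR 9.43e-05), and Nap1l1, a histone chaperone, 1.86-fold lower (FDR 0.00760). Among the elongation factors of the list, Eef1b2 (log2 fold change -0.47, FDR 0.0110) and Eef1d (-0.46, FDR 0.0292) were lower in adults. The call of Eef1b2 was lost without adult replicate 1, and that of Eef1d without adult replicate 1, adult replicate 2, P10 replicate 3 or P10 replicate 4. Eef1a1 (-0.02, FDR 0.912), Eef1g (-0.04, FDR 0.865) and Eef2 (0.24, FDR 0.113) did not pass. Pabpc1, which binds poly(A) tails, had 366, 346 and 350 CPM in adults, against 304, 261 and 230 CPM at P10 (log2 fold change 0.42 ± 0.13 SE, FDR 0.0228), a call lost without adult replicate 1, P10 replicate 3 or P10 replicate 4.

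Genes of the mTORC1 pathway and other regulators of the family showed no common direction. Of 17 tested, 3 were lower in adults (17.6%) and 2 higher, with a median of -0.04. These counts are near the shares of all genes tested, 13.8% lower and 12.5% higher. Myc, a transcription factor that drives ribosome production, had 15.9, 5.50 and 11.6 CPM in adults, against 36.1, 29.9 and 24.8 CPM at P10 (2.74-fold lower, FDR 0.00303). Eif4ebp1, the initiation repressor that mTORC1 inactivates, was 2.07-fold lower (FDR 0.000734), and Maf1, a repressor of RNA polymerase III, 1.52-fold lower (FDR 0.0150, and 0.0515 without adult replicate 3 and 0.0502 without P10 replicate 1). Rptor, the defining subunit of mTORC1, had 92.3, 76.2 and 91.4 CPM in adults, against 44.1, 53.8 and 45.9 CPM at P10 (log2 fold change 0.86 ± 0.16 SE, FDR 0.000953). Tsc1, part of the complex that restrains mTORC1, passed narrowly (log2 fold change 0.66 ± 0.23 SE, FDR 0.0470), and its call was lost on leaving out any library other than P10 replicate 1. Of 10 tested chaperones and importers of ribosomal proteins, 2 were lower, Nap1l1 and Ltv1 (2.70-fold, FDR 0.00751), with a median of -0.12. That is 20% of this short list, against 13.8% of all genes tested.

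Marker mRNAs of several cell types also differed between the groups, where 13.8% of all genes tested were called lower and 12.5% higher. Of 8 tested beta cell markers 7 were higher in adults, with a median log2 fold change of 1.13. All 6 tested fibroblast markers were lower, with a median of -2.60 and a summed level of 240 to 327 CPM in adults and 2493 to 3179 CPM at P10, and Col1a2 is listed at 0 throughout. Of 9 genes of dividing cells 8 were lower, with a median of -1.83 and a summed level of 71.8 to 87.9 CPM in adults and 213 to 259 CPM at P10. All 3 tested duct markers were lower, with a summed level of 138 to 191 CPM in adults and 1069 to 1093 CPM at P10. Endothelial markers had 1 lower of 6, leukocyte markers 1 of 5, red cell markers 1 of 3, alpha cell markers 1 lower and 1 higher of 5, and acinar markers 3 lower and 2 higher of 7. The 3 lower acinar calls (Cpb1, Cpa1 and Ctrb1) were lost with DESeq2, and those of Cpa1 and Ctrb1 also on leaving out single libraries. The summed acinar level ran from 849 to 3450 CPM in adults, where replicate 3 was the highest in each of these 3 genes, and from 2459 to 3489 CPM at P10. The leukocyte call (Lyz2) was lost without adult replicate 2. The part of these cells in the fall of the ribosomal protein mRNAs was not tested.

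**Figure D5:**
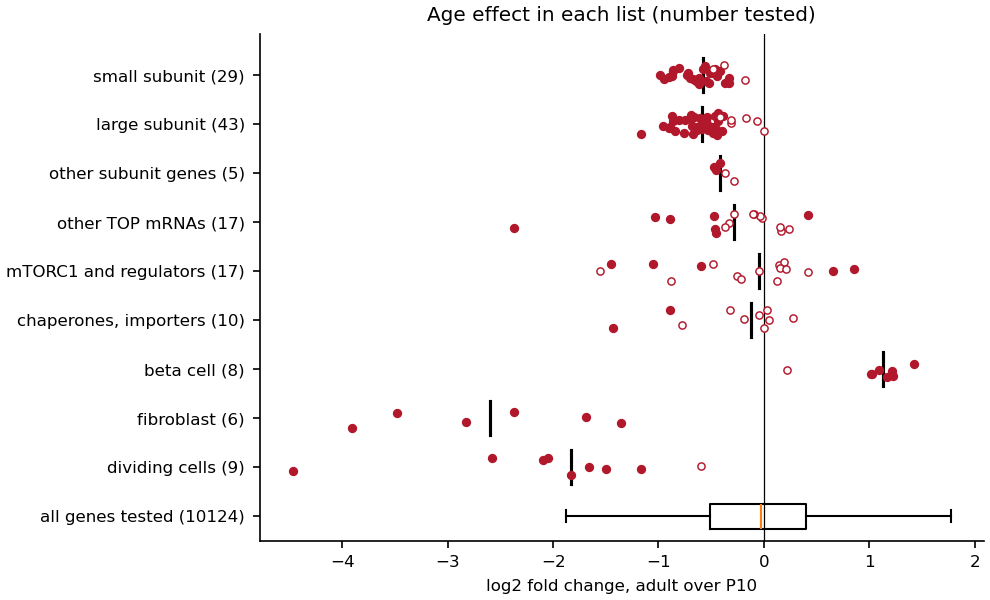
Log2 fold change (adult over P10, on the x axis) of every tested gene in each list, with filled points for an FDR under 0.05, open points for the rest, and a black bar at the list's median. The ribosomal protein rows form narrow clusters at a median of -0.58, while the box (quartiles, with whiskers to 1.5 times the interquartile range) shows all 10124 genes tested around -0.03.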

How the data were processed

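The deposited values used here are whole-number read counts per gene symbol, 1 set for each of 6 libraries. Per the labels' protocols, polyadenylated RNA was made into single-end libraries that keep no strand. The submitters' processing notes name Bowtie2, TopHat2 2.0.10, HTSeq and the rn5 build, and DESeq and edgeR with no role. A deposited table repeating these counts was not used. All 5 counter rows were left out of library sizes. By the counter rows in the deposited files, alignments that were not unique entered no gene, so reads shared by near-identical copies, common in this family, are missing or unevenly divided, and reads of overlapping or antisense genes cannot be told apart.

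Genes were kept by filterByExpr (minimum count 10, total 15) and tested with edgeR 4.0.16 in R 4.3.3, by the quasi-likelihood F test with TMM factors and age as the only term. P-values were adjusted by Benjamini-Hochberg over all 10124 genes tested, at 0.05. The biological coefficient of variation was 23.7%. CPM values are TMM-scaled and not corrected for transcript length. The standard error of a log2 fold change was its size over the root of the F statistic. P-values measure the spread between libraries labelled biological replicates. The libraries of a group differed by more than sampling noise (chi-square per degree of freedom 5.95 to 17.9), so none was counted as a duplicate. The fit was tested on simulated counts.

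Members and gene lists were chosen with earlier results of these data known. Named genes are the 6 largest changes per subunit averaging at least 5 CPM, paralog pairs, stalk proteins, Rps6, Rpsa, Rps27a, Rpl5, Rpl11, the highest and lowest member of each subunit and up to 3 genes per direction of other lists. The 9 members that did not pass, and Rps2, Rps3, Rps15a, Rpl3, Rpl12, Rpl23a, the elongation factors and the X-linked members, were named after their values were seen. A gene that the naming rule takes is not reported here. Alternatives were DESeq2 1.42.0, other scalings and filters (including 5 CPM in 3 libraries), a 1.5-fold threshold test, the replicate number as a term, and leaving out each library. Start windows come from RefSeq on GRCr8, a later build than that of the counts, and were matched by symbol.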

Additional observations from a re-analysis of the deposited data

How the results depend on the processing

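Apart from the fit scaled to the members, no alternative run called a member higher in adults. Members called lower numbered 62 of 72 with relative log expression factors, with TMM factors from genes other than the members, and with TMM factors without hormone and acinar genes (Rps20 was the call lost in each), 71 with library totals alone, 65 of 76 with no filter, 65 of 72 with at least 5 CPM in 3 libraries and 64 of 73 with DESeq2. Against a 1.5-fold change 10 passed, 5 in each subunit, and over all genes 624 lower and 337 higher. With library totals alone the medians were -1.07 (small), -1.08 (large) and -0.52 (all genes), with 3612 genes called lower and 343 higher. A change of scaling shifts all genes nearly alike. The gap of -0.55 between members and all genes therefore had to stay as with TMM factors, and it is no separate check.

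Leaving out each library in turn gave 21 to 24 small and 30 to 36 large members lower, medians of -0.61 to -0.52 (small) and -0.62 to -0.54 (large), and 1040 to 1266 genes lower and 923 to 1262 higher. TOP mRNAs had 4 to 7 lower and 0 to 1 higher, regulators 2 to 3 lower and 1 to 2 higher, other subunit genes 2 to 3 lower. Relative to the family 1 to 4 members were lower and 3 to 7 higher. Replicate numbers 1 and 3 occur in both groups, but same-numbered libraries did not deviate together (correlations -0.024 and -0.0049). So few pairs cannot show whether same-numbered samples shared a preparation. Adult replicate 2 and P10 replicate 4 have no same-numbered partner. With the number as a block, the age term therefore rests on the libraries numbered 1 and 3 alone. In that fit 49 members were lower, and over all genes 729 were lower and 679 higher. Other subunit genes had 1 lower, TOP mRNAs 3 lower and 0 higher, and regulators 1 higher. Relative to the family 2 members were lower and 3 higher.

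Library totals alone turned the value of Pabpc1 negative (-0.076) and moved that of Rpl4 from 0.00 to -0.49. That scaling gave other subunit genes 5 lower, TOP mRNAs 13 lower and 0 higher, regulators 7 lower and 0 higher, and chaperones 6 lower. Against a 1.5-fold change these lists had 0 lower, 2 lower and 0 higher, 0 higher, and 1 lower. Regulators had 1 higher with no filter, 5 lower and 1 higher at 5 CPM, and 1 higher with DESeq2, which called 2 TOP mRNAs higher. Share ratios were 0.614 and 0.633 without hormone and acinar genes and 0.519 and 0.536 with not-unique alignments added. The cause of these changes was not tested. Low counts limit Rpl22l1 and the untested members. Why several untested members are listed at 0 in every library was not determined.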
